A study of Mus musculus with 2 samples.

Results

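YAP and TEAD pathway genes were examined in organoids derived from the urothelium of normal mouse bladder, a stratified lining epithelium. They were 10 of the 31053 gene identifiers in the count tables, taken by symbol: the transcriptional coactivators Yap1 and Wwtr1 (which encodes TAZ), their DNA-binding partner Tead1, the LIM-domain protein gene Ajuba, and the target genes Ankrd1, Cyr61, Ctgf, Amotl2, Axl and Lats2. All 10 had at least 1 unique molecular identifier (UMI, a tag that marks 1 captured RNA molecule) in kept cells of both libraries.

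In the Hippo pathway, the kinases encoded by Stk3 and Stk4 activate LATS kinases, which phosphorylate YAP and TAZ and hold them out of the nucleus. Unphosphorylated YAP and TAZ enter the nucleus, bind TEAD factors and drive genes such as Ctgf, Cyr61 and Ankrd1, so target transcripts are commonly used as a readout of the pathway, while control of YAP and TAZ themselves is largely at the protein level. In stratified epithelia the pathway is known for its response to cell density, cell shape and contact with matrix, and some of its targets, Lats2 and Amotl2 among them, encode inhibitors that feed back on it.

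Droplet single-cell sequencing (10x Genomics, 3′ v3 kit) gave 1 library of proliferative organoids (P) and 1 of differentiated organoids (D). Both came from unsorted urothelial cells of wild-type (WT) C57BL/6 mice aged 8 to 10 weeks and were grown in Matrigel. P organoids were kept in complete medium with EGF, WNT3A, RSPO1, Noggin and the TGF-β receptor inhibitor LY2157299, and D organoids had been moved to medium without these 5 agents. With 1 library per group there was no replicate spread and no test. Each ratio carries a 95% interval for counting error alone, and medium, culture and library cannot be told apart.

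Barcodes were kept as cells when over 800 genes were detected and mitochondrial transcripts made up no more than 12% of their UMIs, 6818 of 8194 barcodes in P and 4896 of 6975 in D, with medians of 3405.5 and 3227.5 UMIs per cell. The deposited tables shared 10 barcodes, and 6 of these were among kept cells of both libraries. Levels are UMIs per 1000000 UMIs (CPM) over all cells of a group, not divided by gene length, so levels were compared between groups and not between genes. Transcripts of ribosomal proteins made up 36.9% of UMIs in P and 21.1% in D, and the median gene stood 0.42 higher in D on the log2 scale over genes that reached 100 UMIs in both libraries. Transcripts of 12 early-response genes, which include Fos, Jun and Egr1 and rise on tissue dissociation, summed to 1484 CPM in P and 3014 CPM in D.

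In D, 3 groups of cells were set by marker UMIs after each cell had been thinned to 2100 UMIs. Acta2-positive cells had at least 1 UMI of Acta2, the gene for smooth muscle actin, and numbered 139 of 4417 (3.15%). Uroplakin-high cells had at least 5 UMIs of Upk1a, Upk1b, Upk2, Upk3a and Upk3b together, the membrane plaque genes of luminal umbrella cells, and numbered 624 (14.1%). Another 3647 cells passed neither gate and served as the remaining cells, and 7 that passed both were left out. P held only 16 Acta2-positive and 2 uroplakin-high cells, too few for levels of their own.

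The Acta2-positive cells carried epithelial markers, but these were not higher as a set, with a median log2 ratio of 0.10 over 6 markers. Epcam was at 591 CPM against 472 CPM in the remaining cells, and the basal keratin Krt14 at 10258 CPM against 3977 CPM. Cdh1 was lower, at 203 CPM against 288 CPM, as was Krt18, at 388 CPM against 528 CPM. Krt5 and Krt8 differed by at most 1.12-fold. Defining smooth muscle markers were at or near 0 in the Acta2-positive cells, with 0 UMIs of Myh11, Des and Myocd and at most 2 UMIs each of Cnn1, Actg2, Lmod1 and Synpo2. The fibroblast collagen genes were likewise near 0, with 0 UMIs of Col1a1 and 1 UMI of Col3a1, while the matrix gene Dcn was at 71.4 CPM against 60.65 CPM in the remaining cells. All 9 genes of a contractile list were at least 2-fold higher in the Acta2-positive cells, among them Acta2, which set the gate. Of the 8915 genes with at least 100 UMIs, 3.67% were at least 2-fold higher there.

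The genes lie on 6 chromosomes of the GRCm38 build, and all 10 are protein coding in GENCODE M21. The coactivator genes are Yap1 (chr9:7931999-8004596, minus strand) and Wwtr1 (chr3:57455649-57575910, minus strand), and their partner is Tead1 (chr7:112679318-112906807, plus strand). Ajuba spans chr14:54567472-54577558 on the minus strand. Of the targets, Ankrd1 (chr19:36111961-36120099), Cyr61 (chr3:145646976-145649981), Axl (chr7:25757273-25788705) and Lats2 (chr14:57689662-57758388) lie on the minus strand. Ctgf (chr10:24595442-24598683) and Amotl2 (chr9:102716672-102733418) lie on the plus strand.

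Promoter windows of 250 bases before the annotated start were available for 8 of the 10 genes in RefSeq (GRCm38.p6), and not for Ctgf and Tead1. They were searched on both strands for GGAATG, the hexamer at the core of the MCAT element that TEAD factors recognise, which reads CATTCC on the complementary strand. The hexamer was present in 7 of the 8 genes and not in the windows of Lats2. Among all windows searched, 4153 of 32851 windows (12.6%), or 3880 of 27025 genes (14.4%), held it. Such a match describes the letters and is not evidence of a bound site. The windows of Cyr61 (chr3:145649986-145650235), Axl (chr7:25788734-25788983) and Ajuba (chr14:54577662-54577911), the genes that ran together along the basal to luminal order of cells below, are printed 5′ to 3′ on the gene's strand, with the hexamer in capitals.
Cyr61: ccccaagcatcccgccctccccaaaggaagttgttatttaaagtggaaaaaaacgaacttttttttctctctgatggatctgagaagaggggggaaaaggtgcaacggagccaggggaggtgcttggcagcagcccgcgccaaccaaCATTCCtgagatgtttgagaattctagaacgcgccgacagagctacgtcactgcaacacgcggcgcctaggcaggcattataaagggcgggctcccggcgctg
Axl: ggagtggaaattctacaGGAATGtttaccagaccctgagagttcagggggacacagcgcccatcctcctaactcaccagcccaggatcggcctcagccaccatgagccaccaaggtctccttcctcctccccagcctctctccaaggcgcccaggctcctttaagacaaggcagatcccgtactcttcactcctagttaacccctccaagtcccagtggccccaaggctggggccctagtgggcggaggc
Ajuba: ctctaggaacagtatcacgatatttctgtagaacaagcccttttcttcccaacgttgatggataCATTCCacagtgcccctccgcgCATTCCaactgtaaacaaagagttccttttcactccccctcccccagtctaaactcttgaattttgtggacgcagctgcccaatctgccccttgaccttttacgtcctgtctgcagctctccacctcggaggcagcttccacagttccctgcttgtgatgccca

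For Ankrd1, which had the opposite order, and for Amotl2, only the hexamer and 10 bases on each side are printed, because their windows overlap exons of GENCODE transcripts. The pieces lie at chr19:36119952-36119977 and chr19:36120039-36120064 for Ankrd1 and at chr9:102717729-102717754 for Amotl2. The hexamers begin 123 and 210 bases before the annotated start of Ankrd1 and 65 bases before that of Amotl2.
Ankrd1 first piece: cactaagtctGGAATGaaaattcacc
Ankrd1 second piece: cactgccaaaGGAATGaccctctcac
Amotl2: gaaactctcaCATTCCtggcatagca

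The first comparison asked how the pathway's transcripts differed between proliferative and differentiated organoids. The targets Ankrd1, Ctgf, Cyr61 and Amotl2 were 3.00-fold to 25.1-fold higher in D, whereas the coactivators, Tead1 and Ajuba differed by at most 1.57-fold. With the median gene set to 0, the log2 ratios were 4.23 for Ankrd1, 3.53 for Ctgf, 2.44 for Cyr61 and 1.16 for Amotl2. Those of the coactivators, Tead1 and Ajuba were then at most 0.23. At least 2-fold higher levels in D were found for 4 of the 10 genes, against 13.5% of the 10719 genes with at least 100 UMIs, and at least 2-fold lower levels for 0 of 10, against 4.73% of all genes. The median log2 ratio was 0.69 over the 10 genes, 2.22 over the 6 targets and 0.41 over all genes. The 10 genes were chosen with earlier results of these data known, so these shares and medians are no test of enrichment. The same holds for the comparisons below.

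The effector genes differed least between the libraries, together with Axl and Ajuba. Yap1 was at 28.0 CPM in P (747 UMIs) and 38.2 CPM in D (775 UMIs), a log2 ratio of 0.45 (interval 0.30 to 0.59). Wwtr1 was at 33.7 CPM in P and 50.7 CPM in D, a log2 ratio of 0.59 (0.46 to 0.72). Tead1 was at 30.1 CPM in P and 47.2 CPM in D, a log2 ratio of 0.65 (0.52 to 0.79). These ratios lay near that of the median gene, and with the median gene set to 0 they were 0.03 for Yap1, 0.17 for Wwtr1 and 0.23 for Tead1. Ajuba, whose protein binds LATS kinases at cell junctions and limits their activity, was at 38.0 CPM in P and 51.4 CPM in D, a log2 ratio of 0.44 (0.31 to 0.56) that was 0.01 with the median gene set to 0.

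Ctgf, which encodes a secreted matricellular protein, had 63 UMIs in P and 742 in D. Its level was 2.36 CPM (1.81 to 3.02) in P and 36.5 CPM (34.0 to 39.3) in D, which is 15.5-fold higher, a log2 ratio of 3.95 (3.58 to 4.35). The UMIs were spread over 56 cells in P and 568 in D, with at most 8 in 1 cell of D, so no single cell carried the difference. Cyr61, a matricellular gene of the same family, was at 6.86 CPM (5.90 to 7.93) in P and 49.8 CPM (46.8 to 53.0) in D. Its level was 7.27-fold higher in D, a log2 ratio of 2.86 (2.63 to 3.10), with UMIs in 164 cells of P and 715 of D.

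Ankrd1, which encodes an ankyrin repeat protein found in muscle sarcomeres and in nuclei, was close to undetected in P, with 9 UMIs in 5 cells. In D it had 172 UMIs in 86 cells, a level of 8.47 CPM (7.25 to 9.84) against 0.337 CPM (0.154 to 0.640) in P. The log2 ratio was 4.65 (3.69 to 5.80), or 25.1-fold. A single D cell held 28 of the UMIs and the 5 cells with the most held 32.6% of them, and without the richest cell of each library the log2 ratio was 4.98.

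Amotl2, which encodes an angiomotin that holds YAP in the cytoplasm, was at 14.1 CPM (12.7 to 15.6) in P and 42.2 CPM (39.4 to 45.1) in D, a log2 ratio of 1.58 (1.41 to 1.76). Lats2, which encodes one of the kinases that phosphorylate YAP and TAZ, was at 7.05 CPM in P and 11.7 CPM in D, a log2 ratio of 0.73 (0.45 to 1.02), or 0.31 with the median gene set to 0. Axl, a receptor tyrosine kinase gene, was the target nearest to equal levels, at 17.7 CPM in P and 20.2 CPM in D. Its log2 ratio of 0.19 (-0.00 to 0.38) turned to -0.23 with the median gene set to 0.

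**Figure D1:**
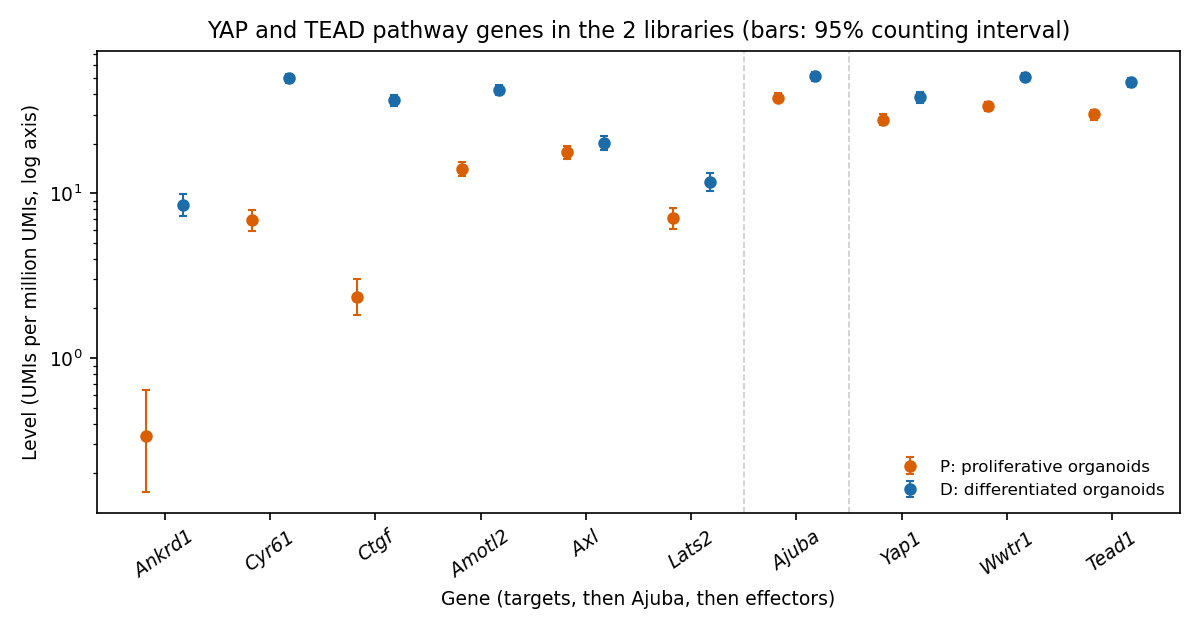
Level of each gene in the P and D libraries as UMIs per 1000000 UMIs on a log axis, with 1 library each and bars for the 95% Poisson interval of the count. Ankrd1, Cyr61, Ctgf and Amotl2 lie clearly apart between the libraries, while the bars of Axl overlap and the effectors at the right differ by at most 1.57-fold.

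The share of cells with a UMI was also compared at an equal depth of 2100 UMIs per cell. Ctgf had a UMI in 0.362% of 6638 P cells (Clopper-Pearson interval 0.232 to 0.537) and in 6.996% of 4417 D cells (6.26 to 7.79). For Cyr61 the shares were 1.40% (1.13 to 1.71) and 9.19% (8.36 to 10.1), and for Amotl2 2.82% (2.43 to 3.24) and 7.18% (6.43 to 7.98). The share for Axl was 3.90% in P and 3.80% in D, where its CPM was 17.7 and 20.2, so no order was read for it, and for Yap1 the share was 5.74% and 7.77%. RNA free in the droplets could add to each share, and no cell type known to lack these genes was present as a reference. Also at 2100 UMIs per cell, the lowest share of Ankrd1 among the large groups was 0.030%, in P. That of Axl was 0.801%, in uroplakin-high cells, and neither share gives a background for the other genes.

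Markers of other cell types were sparse in both libraries. Of 7 fibroblast markers 1 had at least 20 UMIs, Dcn, at 60.8 CPM in D and 1.499 CPM in P, while Col1a1 had 10 and 0 UMIs. Of 3 leukocyte markers 1 did, Laptm5, at 19.7 CPM in D and 0.262 CPM in P, while Ptprc had 2 UMIs and 1 UMI. Of 7 smooth muscle markers 0 reached 20 UMIs, and the endothelial marker Pecam1 was at 2.46 CPM in D and 2.25 CPM in P. The part of Dcn- or Laptm5-bearing cells in the levels of the targets was not tested.

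The differences between libraries were also present among cells that passed neither gate, a comparison added after the values had been seen. Such cells made up 99.7% of thinned P cells and 82.6% of thinned D cells, so this comparison largely repeats the one between whole libraries. There the log2 ratio of D over P was 4.11 for Ankrd1, 3.92 for Ctgf, 2.95 for Cyr61 and 1.41 for Amotl2, and it was 0.17 for Axl. Early-response transcripts differed between the libraries as well. When only cells with at most 2 early-response UMIs at equal depth were used, 3344 in P and 929 in D, the log2 ratio was 5.07 for Ankrd1, 2.82 for Ctgf, 2.55 for Cyr61, 2.07 for Amotl2 and 1.25 for Lats2. Ctgf was thus 3.95 over all kept cells and 2.82 in this subset on the log2 scale, the widest change among the targets.

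The rest of the pathway was described by 4 lists. Their genes were called from 20 UMIs over both groups, while the share over all genes covers those with at least 100 UMIs. Of 14 genes for kinases and scaffolds, 2 passed 2-fold upwards in D and 0 downwards, a share near the 13.5% of all genes. They were genes of the KIBRA family of scaffolds, Wwc2 at 75.4 CPM in D against 22.3 in P, and Wwc1 at 61.7 CPM against 20.5. Of 10 junction and LIM regulators 8 had at least 20 UMIs, and 4 were higher and 0 lower. These were the atypical cadherin gene Fat1 (93.8 CPM in D, 42.4 in P), the phosphatase gene Ptpn14 (70.2 and 34.5), the polarity scaffold gene Dlg5 (15.9 and 7.46), and the angiomotin gene Amot, which had 19 UMIs in D and 10 in P. The median log2 ratio was 0.64 for kinases and scaffolds and 0.999 for junction and LIM regulators, beside 0.41 for all genes.

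Of 9 transcription partners 7 had at least 20 UMIs, and 1 was higher, again near the 13.5% of all genes, which was Vgll3, a TEAD cofactor gene with 55 UMIs in D and 6 in P (log2 ratio 3.59, interval 2.38 to 5.10). Of 15 further YAP and TEAD targets 13 had at least 20 UMIs, and 5 passed 2-fold upwards in D and 1 downwards. Rbms3, an RNA-binding protein gene, had the highest ratio, with 166 CPM in D against 28.9 in P. Crim1 (132 and 40.3 CPM), the ferlin gene Myof (810.2 and 269), Arhgef17 (26.7 and 10.6) and Dock5 (3.05 and 1.35) followed. Igfbp3, which encodes an IGF-binding protein, went the other way, at 42.2 CPM in D and 164 CPM in P. The median log2 ratio of this list was 0.54, or 0.12 with the median gene set to 0.

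The second comparison set the Acta2-positive cells of D against the remaining D cells. Ajuba, Axl and Amotl2 were 2.68-fold to 3.63-fold higher in the Acta2-positive cells, and Cyr61 was 1.80-fold higher, while the intervals of Yap1, Wwtr1, Ctgf, Lats2 and Ankrd1 included equality. At least 2-fold higher levels were found for 3 of the 10 genes, against 3.67% of 8915 genes with at least 100 UMIs, and at least 2-fold lower levels for 0 of 10, against 7.83%. The median log2 ratio was 0.50 over the 10 genes and 0.01 over all genes. The remaining cells include less basal cells. In the quartile of D cells richest in basal marker UMIs, described below, Ajuba was at 101 CPM (91.3 to 111) and Axl at 52.4 CPM (45.5 to 60.0). Amotl2 was at 58.2 CPM (50.9 to 66.2) there. The Acta2-positive cells had 135, 71.4 and 99.3 CPM. Cyr61 was at 126 CPM (115 to 137) in that quartile and 94.7 CPM in the Acta2-positive cells. Beside the intervals of the Acta2-positive cells given below, those of Ajuba, Axl and Cyr61 overlapped and those of Amotl2 did not. The quartile was cut over all thinned D cells, so Acta2-positive cells were not kept out of it.

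Axl was at 71.4 CPM (52.3 to 95.2) in the Acta2-positive cells and 19.7 CPM (17.5 to 22.0) in the remaining cells, a log2 ratio of 1.86 (1.38 to 2.31). Ajuba was at 135 CPM (108 to 167) and 50.1 CPM (46.6 to 53.7), a log2 ratio of 1.43 (1.09 to 1.75). Amotl2 was at 99.3 CPM (76.5 to 127) and 37.0 CPM (34.1 to 40.2), a log2 ratio of 1.42 (1.03 to 1.80). All 3 had more cells with a UMI as well as more UMIs. At equal depth Ajuba was found in 23.7% of Acta2-positive cells (16.9 to 31.7) and 9.87% of remaining cells, Axl in 15.1% (9.60 to 22.2) and 3.89%, and Amotl2 in 18.0% (11.99 to 25.4) and 6.58%.

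Among the other genes, Cyr61 was at 94.7 CPM (72.4 to 122) in the Acta2-positive cells and 52.6 CPM in the remaining cells, a log2 ratio of 0.85 (0.45 to 1.22), and Tead1 was at 72.9 CPM and 46.2 CPM, a ratio of 0.66 (0.20 to 1.09). Ctgf was at 41.9 CPM and 36.4 CPM, a log2 ratio of 0.20 (-0.41 to 0.76), a difference not detectable at this depth. Yap1 was at 41.9 CPM and 39.5 CPM, and Wwtr1 at 59.0 CPM and 48.7 CPM, and both intervals of the ratio included 0. Lats2 had 9 UMIs and Ankrd1 had 2 UMIs in the Acta2-positive cells, so no direction was read for either. For Ankrd1 the log2 ratio of -0.93 (-4.00 to 0.97) became 3.27 when the thinning was drawn with another seed.

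Levels rose with the number of Acta2 UMIs in a cell for Ajuba, Amotl2 and Axl. From 0 over 1 and 2 to 3 up to 4 or more Acta2 UMIs (4271, 82, 36 and 28 cells), Ajuba was at 46.0, 91.0, 169 and 210 CPM, with intervals of 43.0 to 49.2 in the first and 137 to 307 in the last. Amotl2 was at 39.7, 71.3, 106 and 193 CPM, and Axl at 16.8, 41.8, 99.9 and 113 CPM. Cyr61 was at 45.3, 81.2, 125 and 64.5 CPM, without such an order, the last value resting on 8 UMIs. The summed basal markers moved along the same axis, from 7726 CPM at 0 Acta2 UMIs to 18296 CPM at 4 or more, while the summed uroplakins fell from 1315 to 72.5 CPM and the early-response genes from 3035 to 1282 CPM. Of the 7 basal markers 2 were at least 2-fold higher in Acta2-positive cells, against 3.67% of genes with at least 100 UMIs. Among the uroplakins 4 of 5 were at least 2-fold lower, Upk3b on 0 UMIs with an interval that included equality. Of 12 early-response genes 5 were at least 2-fold lower, against 7.83% of genes with at least 100 UMIs. The part of the basal, uroplakin and early-response genes in the levels of the targets was not tested beyond the cells with few early-response UMIs. There the log2 ratio was 1.66 for Axl, 1.37 for Amotl2, 1.33 for Ajuba and 1.38 for Cyr61.

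The other pathway lists were read in the same cells against the 3.67% of all genes at least 2-fold higher there. Of the kinases and scaffolds 0 of 14 were at least 2-fold different. Of the junction and LIM regulators 1 of 7 was higher, the angiomotin gene Amotl1, at 161 CPM against 79.7 CPM. Of the transcription partners 2 of 7 were higher, both on few UMIs, Tead2 with 6 and Vgll3 with 4 in the Acta2-positive cells, and the interval of Vgll3 included equality. Of the further targets 3 of 13 were higher, the TGF-β ligand gene Tgfb2 (68.3 CPM against 22.4), the kinase gene Nuak2 (21.7 against 6.88) and Dock5 (9.31 against 2.66), the last with 6 UMIs. Rbms3, the leading further target between the libraries, was at 237 CPM against 168 CPM.

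The third comparison set the uroplakin-high cells of D against the remaining D cells. Axl and Cyr61 were 5.42-fold and 4.58-fold lower in the uroplakin-high cells, and Ankrd1 was 3.94-fold higher. At least 2-fold higher levels were found for 1 of the 10 genes, against 1.75% of 9184 genes with at least 100 UMIs, and at least 2-fold lower levels for 2 of 10, against 3.8%. The median log2 ratio was -0.08 over the 10 genes and -0.08 over all genes, with targets on both sides of it.

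Cyr61 was at 11.5 CPM (8.13 to 15.8) in uroplakin-high cells and 52.6 CPM (49.0 to 56.4) in the remaining cells, a log2 ratio of -2.20 (-2.71 to -1.73). Axl was at 3.63 CPM (1.87 to 6.33), from 12 UMIs in 12 cells, and 19.7 CPM, a log2 ratio of -2.44 (-3.41 to -1.61). Ajuba was at 26.9 CPM (21.6 to 33.1) and 50.1 CPM, a log2 ratio of -0.90 (-1.23 to -0.58), just short of 2-fold. In shares of cells at equal depth, Cyr61 was found in 2.56% of uroplakin-high cells (1.47 to 4.13) against 10.0% of remaining cells, and Ajuba in 4.17% (2.74 to 6.05) against 9.87%.

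Ankrd1 had the opposite direction, at 23.3 CPM (18.4 to 29.1) in uroplakin-high cells and 5.90 CPM (4.75 to 7.25) in the remaining cells, a log2 ratio of 1.98 (1.52 to 2.43). Its 77 UMIs in uroplakin-high cells lay in 44 cells with at most 8 in 1 cell, whereas 28 of the 91 UMIs in the remaining cells lay in 1 cell. Without the richest cell of each group the log2 ratio was 2.35. At equal depth 3.21% of uroplakin-high cells (1.97 to 4.91) and 0.466% of remaining cells (0.272 to 0.745) had an Ankrd1 UMI.

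Ctgf was at 32.6 CPM and 36.4 CPM, a log2 ratio of -0.16 (-0.47 to 0.14), so a difference of 2-fold lay outside its interval in this library. Amotl2 was at 52.3 CPM and 37.0 CPM, a log2 ratio of 0.50 (0.24 to 0.74). Of the effectors, Yap1 was at 29.3 CPM and 39.5 CPM (log2 ratio -0.43, -0.76 to -0.12), Wwtr1 at 60.1 CPM and 48.7 CPM (0.30, 0.07 to 0.53) and Tead1 at 45.9 CPM and 46.2 CPM. The coactivator genes thus lay on opposite sides of equality, each by less than 2-fold. Lats2 was at 12.1 CPM and 11.0 CPM, a log2 ratio of 0.13 (-0.40 to 0.64).

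**Figure D2:**
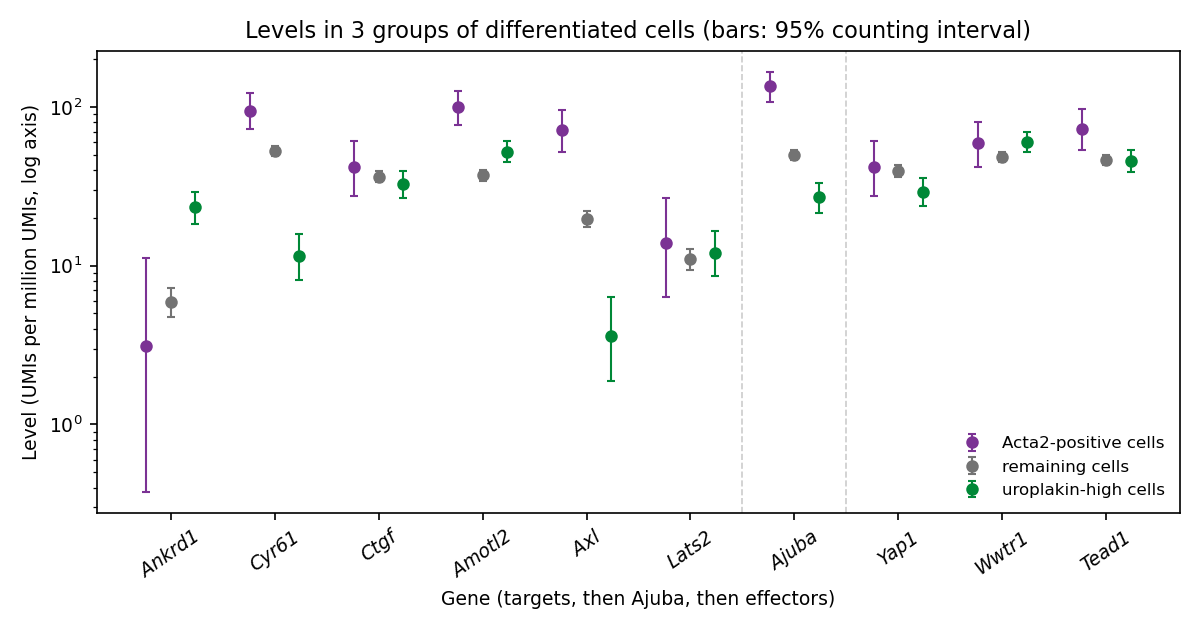
Level of each gene in the Acta2-positive (139 cells), remaining (3647) and uroplakin-high cells (624) of the D library, as UMIs per 1000000 UMIs on a log axis with 95% Poisson intervals. Axl, Cyr61 and Ajuba step down from Acta2-positive to uroplakin-high cells, Ankrd1 is highest in uroplakin-high cells, and Ctgf lies between 32.6 and 41.9 CPM in all 3 groups.

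The same order was seen over 5 bins of uroplakin UMIs, from 0 over 1 to 2, 3 to 4 and 5 to 9 up to 10 or more (2084, 1215, 487, 380 and 251 cells). Cyr61 was at 81.8, 33.2, 14.7, 11.9 and 10.4 CPM, and Axl at 32.4, 13.8, 5.72, 3.33 and 4.79 CPM. Most of the decline for both lay between 0 and 3 to 4 uroplakin UMIs, that is, below the gate. Ajuba was at 73.6, 37.1, 27.0, 24.7 and 31.9 CPM. Ankrd1 was at 1.27 CPM (0.608 to 2.33) in cells without a uroplakin UMI and at 27.9 CPM (19.5 to 38.8) in those with 10 or more. Between them it was at 11.5, 6.95 and 19.98 CPM. The 11.5 CPM rests on 66 UMIs, which include those of the richest remaining cell described above. Ctgf stayed between 28.5 and 39.9 CPM in all 5 bins, and Amotl2 was at 43.5 CPM in the first and 63.8 CPM in the last. The summed basal markers fell along these bins from 12029 to 2088 CPM and the early-response genes from 3187 to 1721 CPM.

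**Figure D3:**
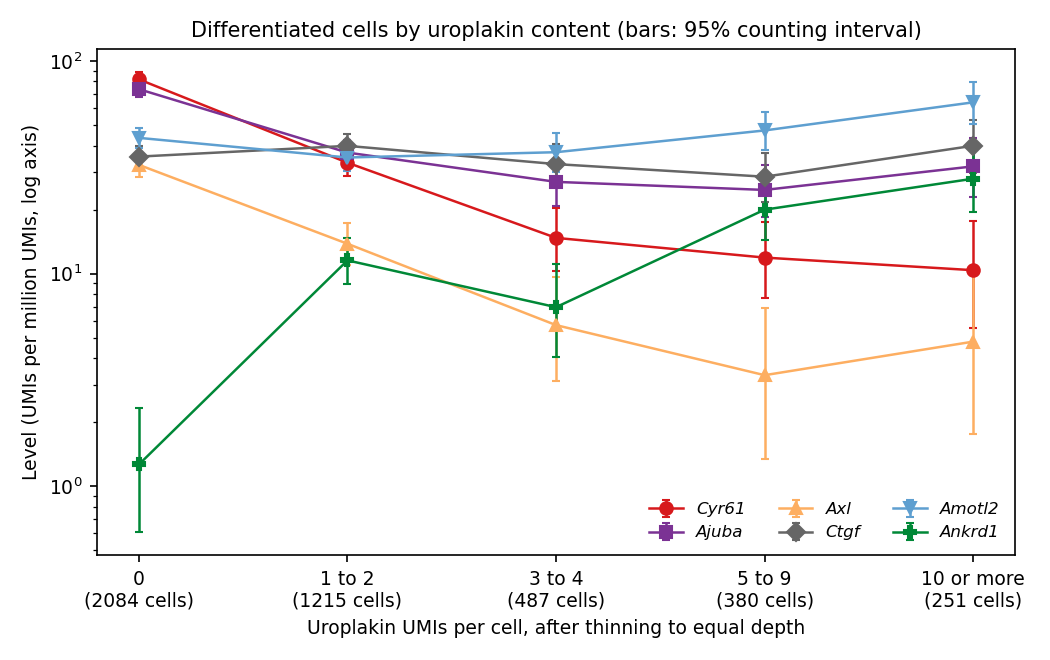
Levels of 6 genes in D cells grouped by uroplakin UMIs per cell after thinning to equal depth, as UMIs per 1000000 UMIs on a log axis with 95% Poisson intervals. Cyr61 declines from 81.8 to 10.4 CPM and Axl from 32.4 to 4.79 CPM, Ankrd1 goes from 1.27 to 27.9 CPM, and Ctgf stays between 28.5 and 39.9 CPM.

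The other pathway lists were read beside the 1.75% of genes at least 2-fold higher and the 3.8% at least 2-fold lower in uroplakin-high cells. Those shares cover genes with at least 100 UMIs, which Nt5e and Tead2 below did not reach. Of the kinases and scaffolds 1 of 14 was at least 2-fold higher in uroplakin-high cells, Wwc1, at 108 CPM against 53.6 CPM, and 0 were lower. Of the junction and LIM regulators 1 of 7 was lower, Amotl1, at 29.3 CPM against 79.7 CPM, the reverse of its position in Acta2-positive cells. Of the further targets 3 of 13 were lower, the ecto-nucleotidase gene Nt5e (3 UMIs, 0.906 CPM against 3.44), Fjx1 (10.3 against 23.9) and Nuak2 (3.32 against 6.88). Of the transcription partners 1 of 7 was lower, Tead2, on 3 UMIs with an interval that included equality.

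Levels were also followed along the basal markers (Krt5, Krt14, Trp63, Itga6, Itgb4, Cd44 and Cdh3), an axis added after the values had been seen, because it is present in both libraries. Ajuba, Cyr61 and Axl were higher in the quartile of cells richest in basal marker UMIs than in the poorest quartile, in P as well as in D. In P, Cyr61 was at 12.1 and 2.01 CPM (log2 ratio 2.59, 1.76 to 3.53), Axl at 30.1 and 7.04 CPM (2.10, 1.63 to 2.58) and Ajuba at 69.4 and 16.5 CPM (2.07, 1.77 to 2.38). In D, Cyr61 was at 126 and 14.1 CPM (3.16, 2.79 to 3.55), Axl at 52.4 and 3.36 CPM (3.96, 3.23 to 4.80) and Ajuba at 101 and 24.1 CPM (2.07, 1.76 to 2.38). The ratio of Ajuba was close to the same in both libraries. That of Axl was 2.10 in P and 3.96 in D, with intervals that did not overlap. The quartiles were cut within each library and span unlike ranges, so these ratios do not share a scale. From poorest to richest quartile, the summed basal markers ran from 2596 to 9960 CPM in P and from 1922 to 18411 CPM in D. Summed uroplakins in the poorest quartile were at 51.2 CPM in P and 2963.5 CPM in D.

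Ctgf and Amotl2 showed little of this order. The log2 ratio of richest over poorest quartile was -0.01 (-1.25 to 1.21) for Ctgf in P, from 12 and 14 UMIs, and -0.41 (-0.73 to -0.10) in D. For Amotl2 it was 0.01 (-0.41 to 0.42) in P and 0.35 (0.07 to 0.62) in D. Both genes were also higher in D than in P in the richest and in the poorest quartile, which were cut within each library and are not matched cells. Ctgf was at 1.997 and 2.01 CPM in the richest and poorest quartiles of P and at 34.7 and 46.1 CPM in those of D. Amotl2 was at 15.3 and 15.2 CPM in P and at 58.2 and 45.7 CPM in D. Ankrd1 was at 1.26 CPM in the richest and 19.3 CPM in the poorest quartile of D, a log2 ratio of -3.94 (-5.59 to -2.66), and had 5 and 3 UMIs in those of P.

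Yap1 differed little between these quartiles, with log2 ratios in P and D of 0.12 (-0.19 to 0.43) and 0.20 (-0.11 to 0.51), and Wwtr1 had -0.30 (-0.58 to -0.02) and -0.23 (-0.51 to 0.04). Tead1 was higher in the basal quartile of both, by 0.61 (0.31 to 0.92) in P and 0.68 (0.41 to 0.96) in D on the log2 scale. Lats2 was at 0.45 (-0.15 to 1.07) and 0.06 (-0.48 to 0.58).

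**Figure D4:**
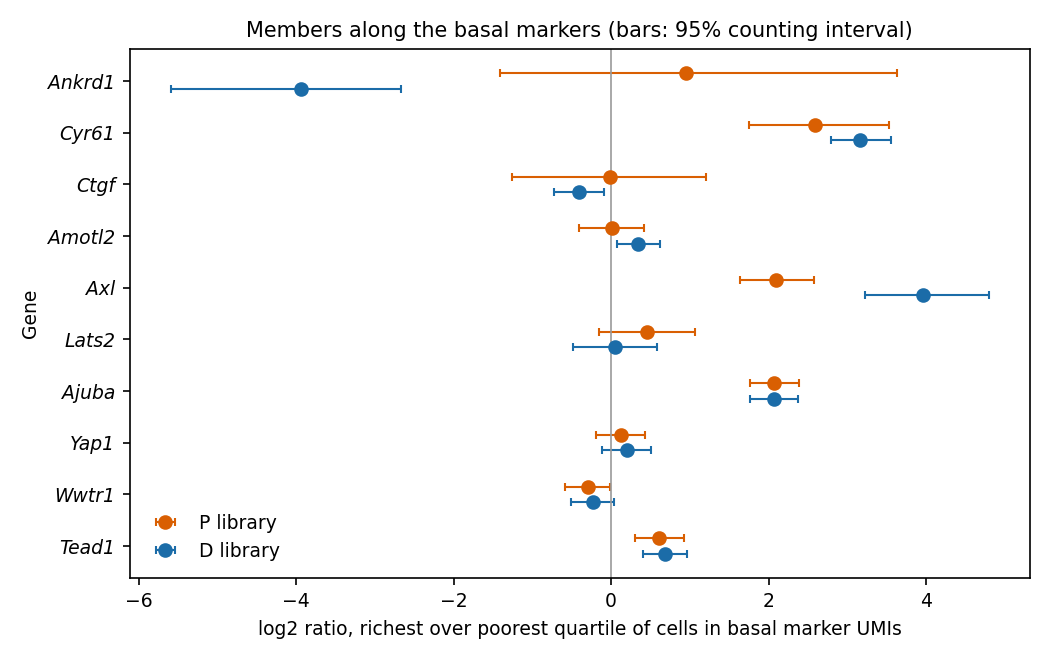
Log2 ratio of each gene's level in the quartile of cells richest over the quartile poorest in basal marker UMIs, in P and in D, with 95% counting intervals. Cyr61, Axl and Ajuba lie right of 0 in both libraries, Yap1 and Wwtr1 lie within 0.30 of 0, and Ankrd1 lies left of 0 in D.

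Cells of D with a UMI of one target were compared with cells without it for the presence of another, at 2100 UMIs per cell. Ctgf was found in 61 of 406 cells with Cyr61 (15.0%, 11.7 to 18.9) and in 6.18% of 4011 cells without. It was found in 11 of 39 cells with Ankrd1 (28.2%, 15.0 to 44.9) and in 6.81% of the others. Amotl2 was found in 12.6% of 309 cells with Ctgf (9.13 to 16.8) and in 6.77% of those without. Axl went with Ajuba, which was found in 20.2% of 168 cells with Axl (14.4 to 27.1) and 9.08% of those without, but not with Ctgf, where Axl was in 3.56% of cells with Ctgf and 3.82% of cells without. Of the 39 cells with Ankrd1, 0 had an Axl UMI (interval up to 9.03%, while 3 counts, the limit that a count of 0 allows, would be 7.69%), and Axl was in 3.84% of the others. These shares describe cells of 1 library that differ along the basal and luminal markers.

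Over the 4417 thinned D cells, 7 of 9398 genes had a Pearson r of at least 0.2 with the summed UMIs of the 6 targets, in counts too sparse to read more than a description. They were Tpm1 (0.28), Cald1 (0.25), Krt14 (0.25), App (0.24), Actn1 (0.21), Msln (0.21) and Htra1 (0.20). Tpm1, Cald1 and Actn1 encode proteins of actin filaments. Over the 6638 P cells 0 of 9486 genes reached 0.2, with Krt14 highest at 0.14.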

How the data were processed

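Per the labels and methods, the authors processed the reads with bcl2fastq 2.19.0 and Cell Ranger 3.0.2 against GRCm38/mm10 and deposited raw UMI counts per gene and cell barcode, unnormalized and without a filter on genes or mitochondrial content. Cells with over 800 genes and at most 12% mitochondrial UMIs were kept, as the study's methods word it. This left 6818 cells in P and 4896 in D, while at least 800 genes would leave 6826 and 4896, the cell numbers the study gives. Counts were summed over the cells of a group and scaled to CPM, with exact Poisson intervals for levels, exact conditional binomial intervals for ratios and Clopper-Pearson intervals for shares, all at 95% and for counting error only. A gene was called higher or lower at 2-fold or more, with at least 20 UMIs over both groups for listed genes and 100 for all genes. Gates, bins, shares and correlations used cells thinned without replacement to 2100 UMIs. This left out 180 shallower cells of P and 479 of D, and levels used the full counts of the gated cells. No doublet caller was run: cells past both gates were left out, and a limit on UMIs per cell was an alternative. Genes were matched to promoter windows by symbol or synonym.

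The genes named were the 10 members, members of the pathway lists that differed at least 2-fold, at most 5 in each direction per comparison, list markers, and genes most like the summed targets. Rbms3 in the Acta2-positive cells was named outside this rule, after its values were seen. The members and lists were chosen with earlier results of these data known. Cell groups were set by marker UMIs and not by the genes described. Scripts ran on Python 3.11.15 with numpy 2.4.6, scipy 1.17.1, pandas 2.3.3 and matplotlib 3.10.9, and the ratio step was tested on simulated data. Alternatives covered scaling, cell filters, gates, thinning, high-UMI cells, early-response cells and the UMI minimum.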

Additional observations from a re-analysis of the deposited data

Results flagged for a closer look

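Barcodes left out by the cell filter also held transcripts of the 6 targets Ankrd1, Cyr61, Ctgf, Amotl2, Axl and Lats2. In the 2079 barcodes left out of D they summed to 687 UMIs, or 332 per 1000000 non-mitochondrial UMIs (307 to 357), against 182 in the kept D cells. In the 1376 left out of P the sum was 63.3 (52.7 to 75.3) against 51.4 in the kept cells. These barcodes have few genes or a high mitochondrial share and entered no comparison, except where all deposited barcodes were used. What kind of cells they held was not tested.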

How the results depend on the processing

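The count of genes at least 2-fold lower in uroplakin-high cells was 2 and became 4 when only cells with at most 2 early-response UMIs were used (199 uroplakin-high and 660 remaining cells), with Yap1 at -1.21 and Ajuba at -1.01 on the log2 scale beside Axl and Cyr61. Over all settings Ajuba ranged from -1.11 to -0.60 in this comparison, so it passed 2-fold outside that subset as well. The count of genes at least 2-fold lower in Acta2-positive cells was 0 and became 1, Ankrd1 on few UMIs, under 5 settings: scaling to the median gene, the filter of over 500 genes, the uroplakin gate of at least 10 UMIs, cells past both gates counted in both groups, and without the richest cell. The cause was not tested for either. Under all alternatives run, the other counts stayed within 1 gene: 4 to 5 higher and 0 lower in D than in P, 3 to 4 higher in Acta2-positive cells, and 1 higher in uroplakin-high cells. No called ratio reversed. Of 120 alternative ratios between the libraries 94 lay within the counting interval of the reported value, as did 159 of 169 for the Acta2-positive and 166 of 170 for the uroplakin-high cells. Scaling to the median gene or without mitochondrial and ribosomal protein genes turned Axl between libraries to -0.23 and -0.14. Amotl2 ranged from 1.16 to 2.07 and Ctgf from 2.82 to 4.07 on the log2 scale. With an Acta2 gate of at least 3 UMIs, Axl was at 2.44, Amotl2 at 1.98 and Ajuba at 1.91. The comparison of cells past neither gate, the one without the richest cell and the alternatives for the lower count in Acta2-positive cells were chosen after seeing the data. Ankrd1 in P and in Acta2-positive cells rests on under 10 UMIs. No paired analysis was possible because each group has 1 library, and for the same reason no replicate could be left out.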

Other observations

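Genes that ran against the summed targets over the D cells, with the lowest Pearson r of 9398 genes, were Gsta4 (-0.32), Krt19 (-0.28), Ly6d (-0.27), Cbr2 (-0.27), Wfdc2 (-0.24) and Krt4 (-0.22). Gsta4, Krt19 and Ly6d were also the lowest over the P cells, at -0.12, -0.10 and -0.10. Krt19 and Krt4 encode keratins of suprabasal epithelial cells and Gsta4 a glutathione transferase. These genes were taken by rank after the values were seen, and the values describe cells of 1 library each.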
